A study of Mus musculus with 2 samples.

Results

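The levels and positions of 6 genes of the Wnt signalling system were followed in mouse ovary with Slide-seq, which captures the RNA of a cryosection on barcoded beads of known position. The genes were the ligands Wnt10b, Wnt4 and Wnt5a, the receptor Fzd1 and the secreted frizzled-related proteins Sfrp4 and Sfrp1. They were taken by name from the count tables of both sections, so that 6 of 22204 gene names were followed, and all 6 were listed in both. The old section came from a C57BL6/J female of about 14 months (replicate 1) and the young section from a C57BL6/J female of 2 months (replicate 3). The labels name no genotype or treatment beyond the strain. Per the labels, each age cohort gave 4 cryosections from 2 females, cut in planes that showed several oocytes, and the other sections were not analysed here. With 1 library per age, the age, the animal, the plane of the section and the library cannot be told apart, and no test of age was made.

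Depth differed: 10267 beads carried 2348768 counts in the old section, a median of 125 each, and 21403 beads carried 5158314 counts in the young section, a median of 153 each. No bead barcode was shared by the sections. Levels are given as CPM, the counts scaled to the total of the section or region. Every 95% interval, exact Poisson for a level and exact conditional binomial for a ratio, covers counting error only and holds no spread between animals. Markers of ovarian cell types were listed in both sections. The oocyte list of 14 egg genes stood at 244 CPM in the old section, against 3064 CPM in the young one, the granulosa list at 2335 and 9450 CPM, and the luteal list at 13115 and 6201 CPM. In a sum over a section, fewer cells of a type and less RNA per cell cannot be told apart.

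Wnt ligands are secreted lipid-modified glycoproteins that bind Frizzled receptors on nearby cells. In the canonical branch this stabilises beta-catenin, which then acts with TCF/LEF factors on target genes, while other branches act on cell polarity and movement. Secreted frizzled-related proteins carry a Frizzled-like domain, bind Wnt ligands outside the cell and can keep them from the receptor. In the mouse ovary, Wnt4 is needed for female gonad development and acts in granulosa cells, and Sfrp4 and Fzd1 are known from periovulatory follicles and corpora lutea. The corpus luteum is the progesterone-making gland that forms from a follicle after ovulation and later regresses, a step in which prostaglandin F2 alpha acts through its receptor Ptgfr.

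The genes lie on 6 chromosomes, and no other gene of the RefSeq annotation of GRCm38.p6 overlapped any of them. Wnt10b lies on chromosome 15 from 98770712 to 98778206, Wnt4 on chromosome 4 from 137277635 to 137299501, and Wnt5a on chromosome 14 from 28504543 to 28527448. The receptor gene Fzd1 lies on chromosome 5 from 4753839 to 4758216, Sfrp4 on chromosome 13 from 19623175 to 19632825, and Sfrp1 on chromosome 8 from 23411383 to 23449632. Promoter windows from RefSeq were matched for 3 of the 6 genes. Those of Wnt10b, Wnt4 and Fzd1 are printed, since no window was matched for Sfrp4, Sfrp1 and Wnt5a. Each is the part of the window just before the gene's start, 5′ to 3′ on the gene's strand (GRCm38.p6), with capitals marking matches on either strand to the GC box GGGCGG or to the TATA box spelled TATAAA.
Wnt10b, minus strand, chr15:98778207-98778400: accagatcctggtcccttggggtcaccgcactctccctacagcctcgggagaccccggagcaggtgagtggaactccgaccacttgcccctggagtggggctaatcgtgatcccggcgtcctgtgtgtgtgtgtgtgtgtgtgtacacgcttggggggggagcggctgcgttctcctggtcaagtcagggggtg
Wnt4, plus strand, chr4:137277385-137277634: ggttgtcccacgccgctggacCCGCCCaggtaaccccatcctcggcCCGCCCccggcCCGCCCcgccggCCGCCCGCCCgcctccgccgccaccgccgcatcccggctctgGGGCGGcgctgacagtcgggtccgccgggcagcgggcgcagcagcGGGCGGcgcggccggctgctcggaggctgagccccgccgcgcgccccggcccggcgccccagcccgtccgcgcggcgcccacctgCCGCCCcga
Fzd1, minus strand, chr5:4758217-4758466: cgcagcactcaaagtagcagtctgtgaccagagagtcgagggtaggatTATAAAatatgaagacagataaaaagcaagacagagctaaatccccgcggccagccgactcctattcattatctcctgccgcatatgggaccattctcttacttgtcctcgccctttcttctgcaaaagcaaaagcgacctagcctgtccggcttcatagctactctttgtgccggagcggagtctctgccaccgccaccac
The Wnt4 window held 8 GC boxes, some of them overlapping, and was 85.2% G and C. The Fzd1 window was 51.2% G and C and held 1 TATA box, 202 bases before the start. The Wnt10b window was 63.9% G and C and, over 194 bases, held neither motif. None of these 3 windows held, on either strand, the NR5A site spelled AAGGTCA. The TCF/LEF site spelled CTTTGAT was in none of them, and neither was the CCAAT box. Of 32851 windows of 250 bases before RefSeq genes, 32.74% held a GC box, 12.37% a TATA box, 4.079% an NR5A site, 3.205% a TCF/LEF site and 33.85% a CCAAT box. A match describes the letters only.

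All 6 genes had a higher share of the counts in the old section than in the young one. At a size of 1.5-fold, 5 of the 6 were higher and 0 lower, where 22.6% of the 12586 genes with at least 20 counts in either section were that much higher and 25.4% that much lower. The median ratio over the 6 genes was 1.85, and over all genes tested it was 0.988. The 6 genes were chosen with earlier results of these data known, so their counts beside all genes, here and by position, are description only. Wnt10b and Wnt4 had the largest ratios of the 6. Wnt10b, a canonical ligand, had 942 counts or 401 CPM (376 to 428) in the old section and 500 counts or 96.9 CPM (88.6 to 106) in the young section, a ratio of 4.14 (3.71 to 4.62). Wnt4 had 807 counts or 344 CPM in the old section and 637 counts or 123 CPM in the young section, a ratio of 2.78 (2.50 to 3.09). Wnt5a, a ligand known for non-canonical signalling, had 274 counts or 117 CPM in the old section against 344 counts or 66.7 CPM in the young one, a ratio of 1.75 (1.49 to 2.06). These 3 intervals exclude 1, and that of Wnt10b lies above those of both other ligands.

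The receptor gene Fzd1 had 345 counts or 147 CPM in the old section and 387 counts or 75.0 CPM in the young section, a ratio of 1.96 (1.69 to 2.27). Sfrp1 had 225 counts or 95.8 CPM in the old section and 301 counts or 58.4 CPM in the young section, a ratio of 1.64 (1.38 to 1.96). Sfrp4 had 4323 counts or 1841 CPM in the old section against 6598 counts or 1279 CPM in the young one, and its ratio of 1.44 (1.38 to 1.50) was the only one of the 6 below 1.5. Scaling the totals by a trimmed mean divides every ratio by 1.09, a shift of 0.12 on the log2 scale, and left all 6 ratios above 1. The granulosa list was lower and the luteal list higher in the old section, and their part in these ratios was not tested. Neat1, a nuclear noncoding RNA, also differed, with 2655 CPM in the old section, against 517 CPM in the young one, and its relation to these ratios was not tested.

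**Figure D1:**
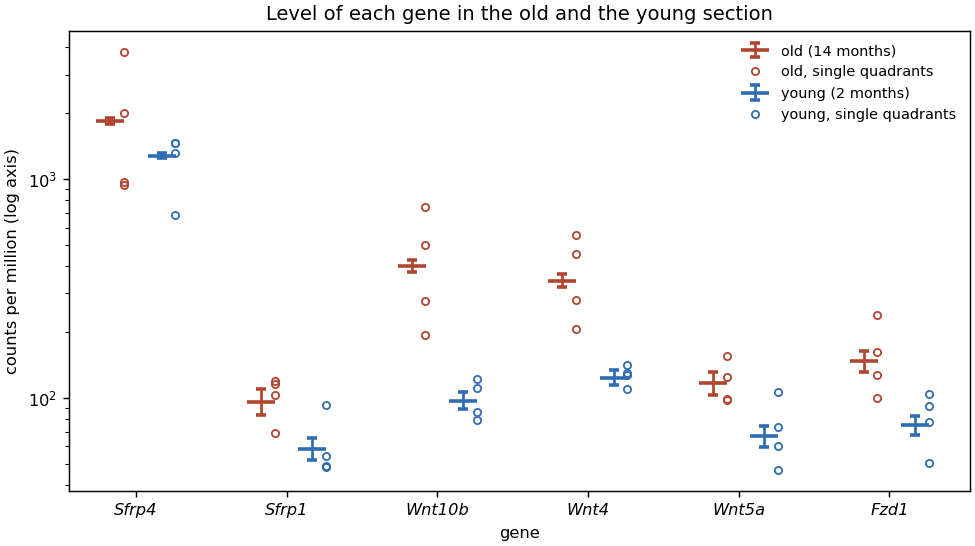
CPM (log axis) of each gene in the old section (red) and the young section (blue), with bars for 95% Poisson intervals. Open points are the 4 quadrants of each section; the old Sfrp4 quadrants run from 939 to 3805 CPM and the young ones from 686 to 1459 CPM.

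Each section was split at its median bead position into 4 quadrants. The quadrants of a section are parts of 1 library and not replicates. Wnt10b ran from 194 to 747 CPM in the old quadrants and from 78.8 to 122 CPM in the young ones. Wnt4 ran from 207 to 556 CPM in the old quadrants and from 110 to 141 CPM in the young ones. Fzd1 ran from 99.6 to 238 CPM in the old quadrants and from 50.2 to 104 CPM in the young ones, Wnt5a from 97.3 to 155 CPM and from 46.8 to 106 CPM, and Sfrp1 from 68.9 to 119 CPM and from 48.5 to 92.6 CPM. Sfrp4 was uneven in the old section. The quadrant at low x and high y had 3805 CPM and the other old quadrants 939, 966 and 1995 CPM, while the young quadrants had 1455, 1459, 1317 and 686 CPM. Without that old quadrant the Sfrp4 ratio was 0.933, on the other side of 1. Without the young quadrant of low x and high y the ratios of Sfrp1 and Wnt5a were 1.48 and 1.46, below the size used for the count.

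For position, beads were pooled into squares 5 bead spacings wide, called bins, and those that reached 500 counts were used, 895 of the old section and 1338 of the young one. A bead spacing is the median distance between nearest beads with counts. Then the fifth of bins richest in a marker list was set against the other bins. Such bins hold mixed cells and are called by the list that ranks them. In luteal-rich bins, 3 of the 6 genes were at least 1.5-fold higher in the old section, where 11.3% of 10473 genes were. Of the 6 genes, 5 were that much higher in the young section, where 10.7% of 12377 genes were. Such counts were not particular to luteal-rich bins. By the macrophage list, 4 of the old ratios and 5 of the young ones were that high. By the stromal list, 2 of the old ratios were that high and 1 that low, against 5 high young ratios. No share of all genes was taken for those lists. Sfrp4 had 4786 CPM in luteal-rich and 1101 CPM in other bins of the old section, a ratio of 4.35 (4.09 to 4.62), and 4269 and 634 CPM in the young section, a ratio of 6.73 (6.405 to 7.075). Wnt10b had 827 and 293 CPM in the old section, a ratio of 2.83 (2.47 to 3.23), and 249 and 63.7 CPM in the young section, a ratio of 3.92 (3.26 to 4.69). Wnt4 differed by the same size in both, with ratios of 1.66 (1.42 to 1.94) in the old section, against 1.66 (1.38 to 1.99) in the young one. Without the section's own quadrant of low x and high y the Sfrp4 ratio was 2.48 in the old section, against 3.36 in the young one.

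Fzd1 went the other way in the sections. It had 88.5 CPM in luteal-rich bins and 161 CPM in other bins of the old section, a ratio of 0.55 (0.38 to 0.77), and 130 and 61.8 CPM in the young section, a ratio of 2.10 (1.67 to 2.62). Without the old quadrant of low x and high y the old ratio was 0.95. Without the young quadrant of low x and high y the young ratio was 1.44, below 1.5, and without Cyp11a1 in the list it was 4.26. Wnt5a had ratios of 1.39 (1.04 to 1.84) in the old section, against 2.48 (1.97 to 3.11) in the young one, and Sfrp1 of 0.84 (0.57 to 1.19) and 1.37 (1.03 to 1.80).

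**Figure D2:**
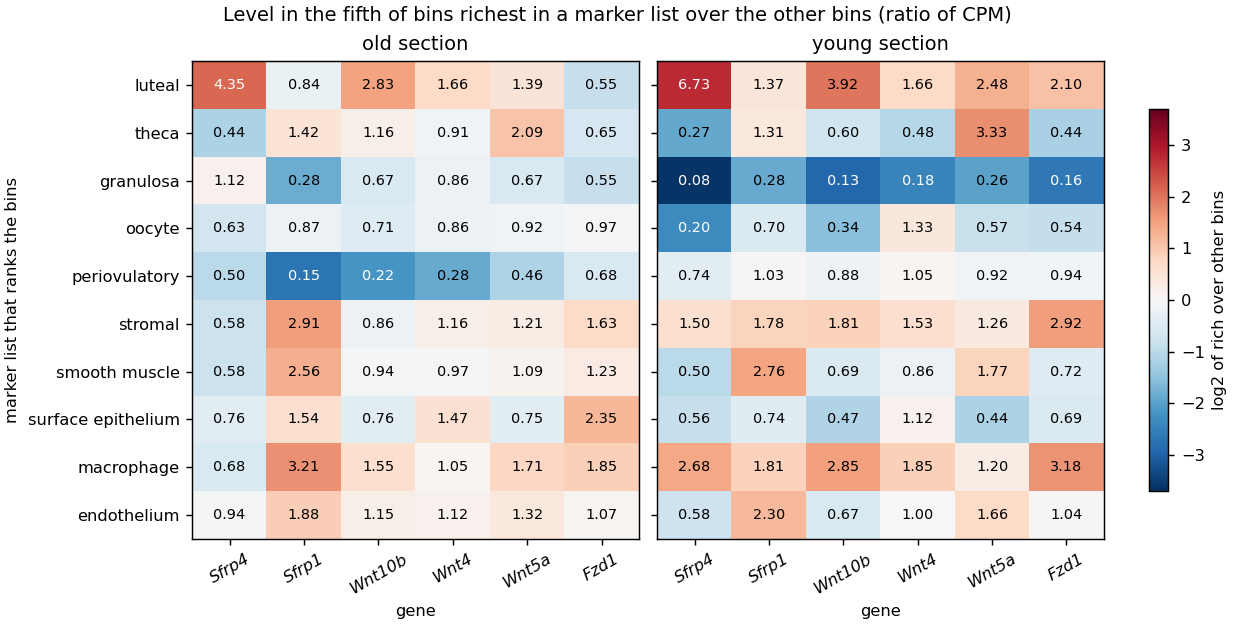
Ratio of CPM in the fifth of bins richest in each marker list over the other bins, for the old section (left) and the young section (right), coloured on a log2 scale and printed as a ratio. Sfrp4 and Wnt10b are high in luteal-rich bins of both sections, and Wnt5a in theca-rich bins of both. The old oocyte and young periovulatory lists had 0 counts in the other bins. Their rich bins can thus include bins without any count of the list, taken by position, low x first.

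The theca list was also high in luteal-rich bins of the young section, at 11068 CPM against 5383 CPM in other bins. Its ratio there was 2.06 (2.01 to 2.11), against 0.65 (0.56 to 0.75) in the old section. The part of theca-list tissue in the luteal-rich values was not tested. The luteal list mixes genes of several luteal states, and its single genes ranked the bins differently. These single-gene rankings were added after the data were seen. Without Cyp11a1, its most abundant gene, the luteal list gave a young Sfrp4 ratio of 13.1. As single rankers in the young section, Cyp11a1, Prlr, Scarb1 and Star gave Sfrp4 ratios of 2.12, 2.21, 2.63 and 3.19, and Akr1c18 and Ptgfr, which is also among the genes most correlated with Sfrp4, gave 9.67 and 19.7. In the old section the same genes gave 3.88, 3.07, 3.69, 1.92, 1.57 and 4.03. Wnt4 had a young ratio of 0.86 (0.67 to 1.07) by Cyp11a1. The young Wnt5a ratio was 2.94 (2.34 to 3.68) by Cyp11a1, which made up 8882 of the 14271 list counts in young luteal-rich bins. By Prlr, Lhcgr, Star and Scarb1 the Wnt5a ratio was 1.90, 1.83, 1.83 and 1.76, and by Ptgfr and Akr1c18 1.05 and 0.91. In young bins rich in Ptgfr, the prostaglandin F2 alpha receptor, 5 of the 6 genes were at least 1.5-fold higher, where 12.9% of 12376 genes were. Sfrp4 had 5988 CPM in Ptgfr-rich bins and 304 CPM in other bins of the young section, a ratio of 19.7 (18.5 to 21.0), and Wnt10b had 395 and 34.8 CPM, a ratio of 11.3 (9.33 to 13.9). Fzd1 followed with 247 and 37.9 CPM, a ratio of 6.53 (5.30 to 8.06), and Wnt4 with 260 and 92.9 CPM, a ratio of 2.80 (2.37 to 3.31). Sfrp1 had a ratio of 1.68 (1.28 to 2.18), and Wnt5a one of 1.05 (0.78 to 1.39), an interval that spans 1. With other bin sizes, the highest 10% of bins or any quadrant left out, the young ratio ran from 13.5 to 22.4 for Sfrp4, from 7.98 to 14.2 for Wnt10b and from 4.97 to 8.30 for Fzd1. Sfrp1 fell short of 1.5-fold with the highest 10% of bins, at 1.49, and without the quadrant of low x and high y, at 1.39, and with bins of 10 spacings it lay just under that size, which leaves 4 of the 6.

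In the old section the same ranking left 3 of the 6 genes at least 1.5-fold higher, where 11.8% of 10472 genes were. Sfrp4 had 4736 CPM in Ptgfr-rich bins and 1175 CPM in other bins, a ratio of 4.03 (3.79 to 4.28), Wnt10b 894 and 287 CPM, a ratio of 3.12 (2.73 to 3.57), and Wnt4 516 and 308 CPM, a ratio of 1.67 (1.43 to 1.96). Fzd1 had 117 and 154 CPM, a ratio of 0.76 (0.55 to 1.03). Without the quadrant of low x and high y the Sfrp4 ratio was 2.58 and that of Fzd1 1.56, above 1. Wnt4 fell short of 1.5-fold, at 1.35, without the quadrant of high x and low y.

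Other lists moved with the Ptgfr ranking. In the young section the macrophage list of 11 genes stood at 1399 CPM in Ptgfr-rich bins and 565 CPM in other bins, the stromal list of 9 genes at 2783 and 1747 CPM, and the granulosa list of 11 genes at 3020 and 10780 CPM. In the old section the macrophage list stood at 768 and 634 CPM, the stromal list at 1572 and 1791 CPM and the granulosa list at 2360 and 2329 CPM. The theca list stood at 400 and 771 CPM in the old section and at 2848 and 7123 CPM in the young one. Their part in the result was not tested. Lhcgr, the luteinising hormone receptor, split the sections. Its richest bins in the young section had little Sfrp4, with 621 CPM against 1431 CPM in other bins, a ratio of 0.43 (0.40 to 0.47), and Wnt10b, Fzd1 and Wnt4 had ratios of 0.51, 0.53 and 0.55 there. The old Lhcgr-rich bins had 3403 CPM of Sfrp4 against 1426 CPM, a ratio of 2.39 (2.24 to 2.54), and Wnt10b had 1.65 (1.42 to 1.90). Of the Ptgfr-rich bins, 73 of 179 were also Lhcgr-rich in the old section and 21 of 268 in the young section. By the luteal list, 119 of 179 and 115 of 268 of them were also rich.

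**Figure D3:**
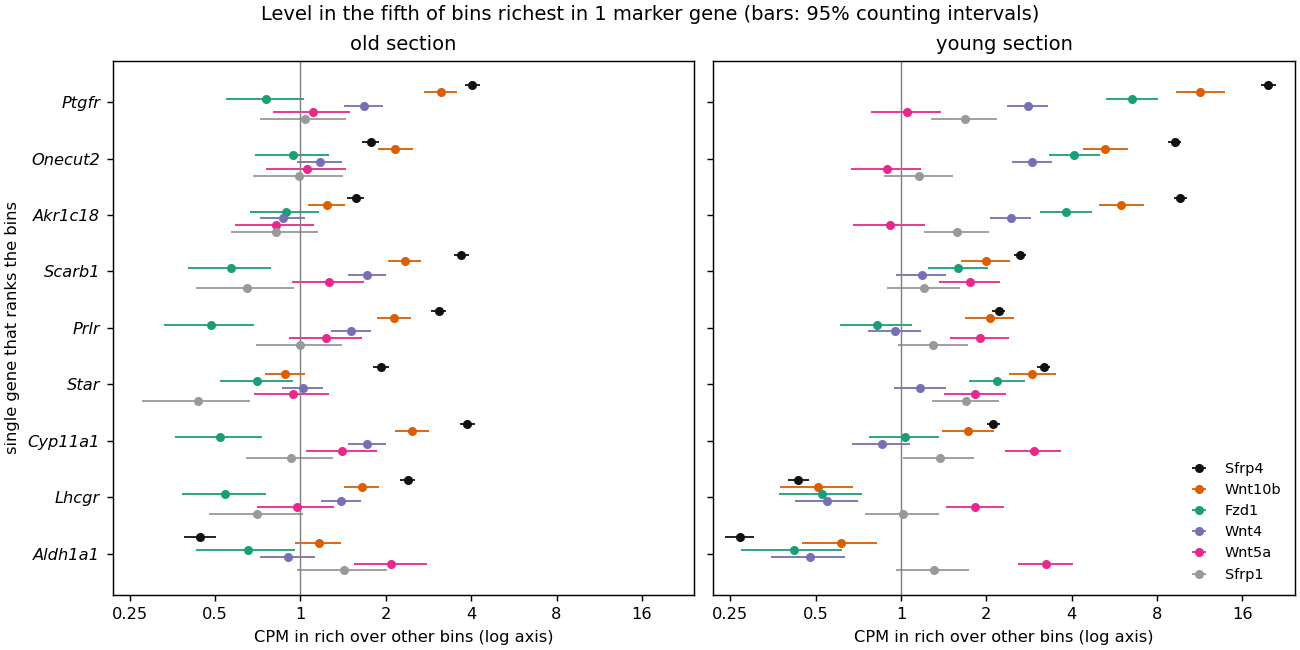
CPM of each gene in the fifth of bins richest in 1 marker gene over the other bins (log axis), old section left and young section right, with bars for 95% counting intervals. In the young section Sfrp4, Wnt10b, Fzd1 and Wnt4 lie to the right of 1 for Ptgfr and to the left of 1 for Lhcgr and Aldh1a1. Onecut2 had counts in only 68 old and 179 young bins, fewer than the 179 and 268 called rich. The rest of its rich bins were filled by position, low x first, so its ratios mix in bins without the gene.

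The Ptgfr-rich bins lay in patches. Runs of at least 8 touching Ptgfr-rich bins numbered 3 in the old section, against 5 in the young one, with 144 of 179 and 209 of 268 of those bins. The old section was dominated by 1 patch of 116 bins. It had 5118 CPM of Sfrp4, 858 of Wnt10b, 527 of Wnt4 and 78.0 of Fzd1, on 1641, 275, 169 and 25 counts. This patch also had 992 CPM of Lhcgr, 2133 of Star, which carries cholesterol into mitochondria, and 418 of Akr1c18, the progesterone-degrading 20-alpha-hydroxysteroid dehydrogenase. The smaller old patches, of 17 and 11 bins, had 224 and 106 CPM of Lhcgr and 2019 and 1753 CPM of Akr1c18. There Sfrp4 stood at 5581 and 2178 CPM, Wnt10b at 1178 and 1222 CPM, Wnt4 at 617 and 584 CPM, and Fzd1 at 196 and 425 CPM on only 7 and 8 counts. The patch of 11 bins had 3878 CPM of the macrophage list, whose part in its values was not tested.

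Of the young patches, 3 held 76, 70 and 47 bins, and their Wnt10b and Wnt4 levels had overlapping intervals. Wnt10b stood at 478, 426 and 391 CPM in them, on 115, 77 and 115 counts, against 34.8 CPM in bins that were not Ptgfr-rich. Wnt4 stood at 295, 266 and 272 CPM, against 92.9 CPM. The patch of 47 bins stood apart in Sfrp4. Its Sfrp4 level was 8802 CPM (8466 to 9147), against 5589 and 5636 CPM in the patches of 76 and 70 bins. Its Fzd1 level was 190 CPM (144 to 247), against 349 CPM (278 to 432) and 321 CPM (244 to 415). It also had 3849 CPM of Akr1c18, against 660 and 725 CPM. The other young patches, of 8 bins each, had 2240 and 3139 CPM of Sfrp4 and 187 and 474 CPM of Wnt10b, on 3 and 13 Wnt10b counts.

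**Figure D4:**
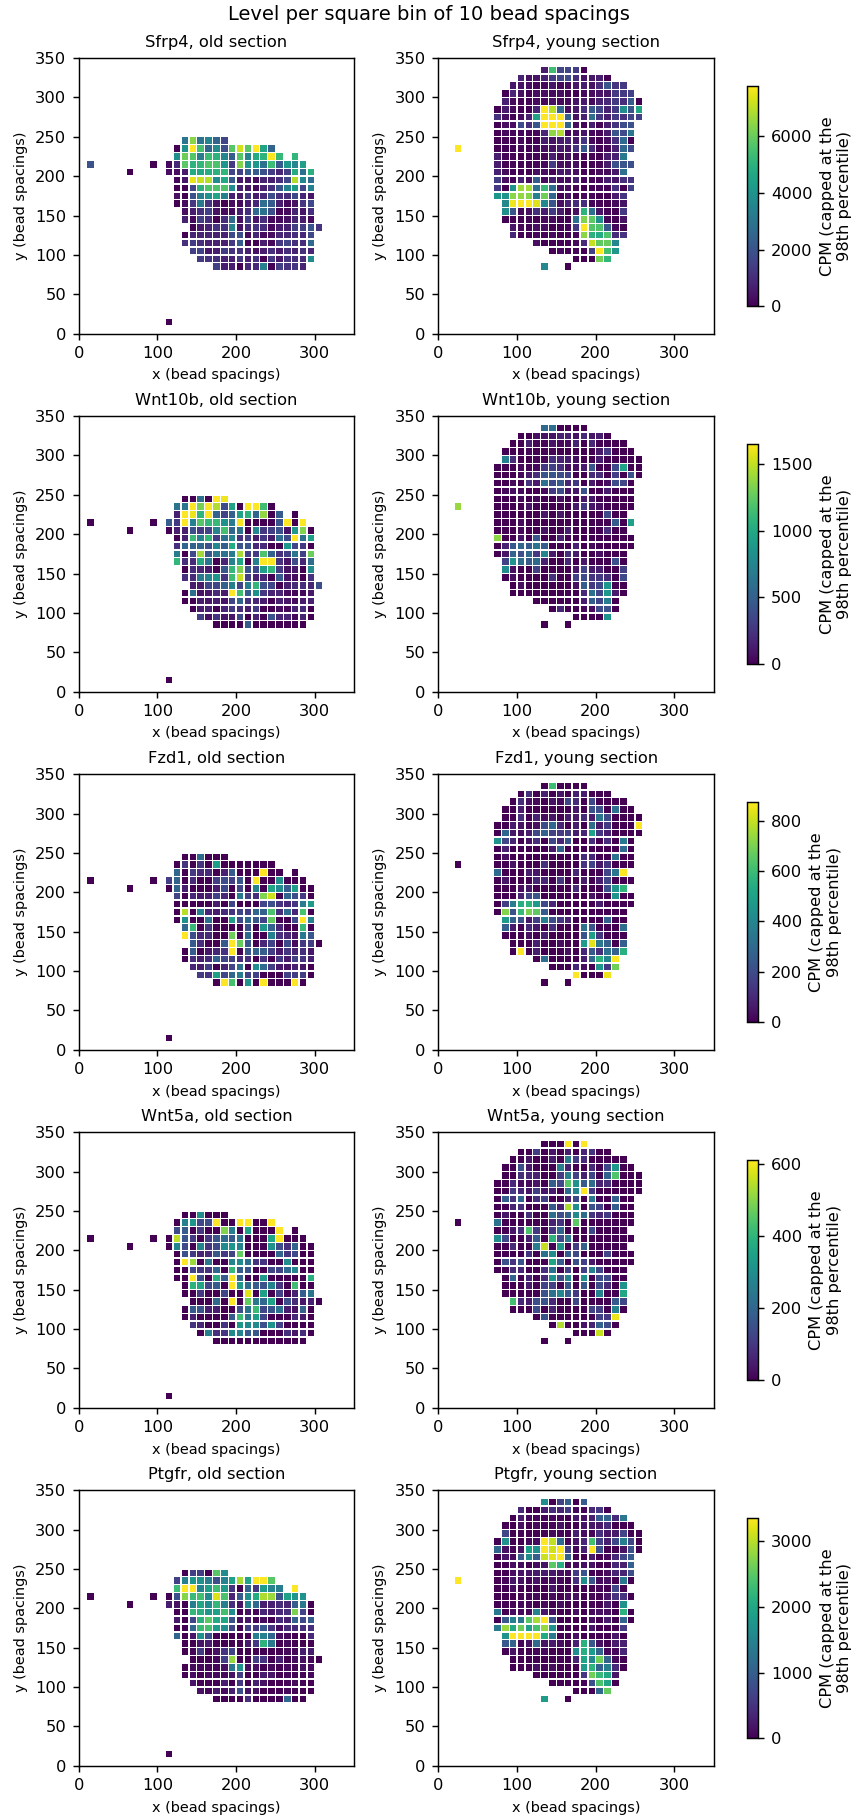
Maps of Sfrp4, Wnt10b, Fzd1, Wnt5a and Ptgfr in square bins of 10 bead spacings, old section left and young section right, with CPM as colour up to the 98th percentile of both sections. The young Sfrp4 and Ptgfr maps share 3 separate bright patches, and the old ones a wide patch at low x and high y.

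Since the Ptgfr-rich bins differ from the rest, the sections were also set side by side within each class of bins. In Ptgfr-rich bins the old over young ratio of Sfrp4 was 0.79 (0.75 to 0.83) and in other bins 3.87 (3.61 to 4.15). Fzd1 likewise had 117 CPM in the old and 247 CPM in the young Ptgfr-rich bins, a ratio of 0.47 (0.34 to 0.64), but 154 CPM in the old and 37.9 CPM in the young other bins, a ratio of 4.05 (3.33 to 4.95). Both genes were thus lower in the old section within the Ptgfr-rich bins and higher outside. The bins outside also differed in other genes, with Ptgfr at 171 CPM in the old section and 74.9 CPM in the young one. There the luteal list stood at 10277.8 and 4834.5 CPM and the granulosa list at 2329 and 10780 CPM. The part of these differences in the ratios was not tested. With a quadrant left out, the ratios in Ptgfr-rich bins ran from 0.41 to 0.95 for Sfrp4 and from 0.37 to 0.94 for Fzd1, the lowest for Sfrp4 and the highest for Fzd1 without the old quadrant of low x and high y. Wnt10b was higher in the old section in both classes, with ratios of 2.26 (1.95 to 2.63) in Ptgfr-rich and 8.23 (6.84 to 9.94) in other bins, and so was Wnt4, with 1.99 (1.64 to 2.40) and 3.32 (2.92 to 3.78). The Wnt5a ratios had overlapping intervals, 1.80 (1.22 to 2.65) and 1.72 (1.43 to 2.06). Sfrp1 had 1.13 (0.76 to 1.67) and 1.84 (1.50 to 2.24).

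By the luteal list, the old over young ratios within rich bins were 3.32 (2.80 to 3.93) for Wnt10b, 2.82 (2.29 to 3.46) for Wnt4 and 1.12 (1.06 to 1.18) for Sfrp4. Those of Wnt5a and Sfrp1, 1.14 and 1.11, had intervals that spanned 1, and Fzd1 had 0.68 (0.46 to 0.98). In the other bins all 6 ratios lay between 1.74 and 4.59. For Wnt10b and Wnt4 these values within luteal-rich bins stand beside 4.14 and 2.78 over the whole sections. Luteal-rich bins were not alike in the sections: the theca list had 491 CPM in the old ones and 11068 CPM in the young ones. The part of that difference in the ratios was not tested.

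Regions rich in granulosa genes were poor in the Wnt genes in the young section. In granulosa-rich bins, which hold the cells that surround the oocyte, 6 of the 6 genes were at least 1.5-fold lower, where 25.0% of 12377 genes were. Sfrp4 had 140 CPM in granulosa-rich bins and 1738 CPM in other bins, a ratio of 0.081 (0.070 to 0.093). Wnt10b had a ratio of 0.13 (0.085 to 0.20), Fzd1 of 0.16 (0.10 to 0.25), Wnt4 of 0.18 (0.13 to 0.25), Wnt5a of 0.26 (0.17 to 0.37) and Sfrp1 of 0.28 (0.18 to 0.40). That of Wnt4 was 0.32 without the quadrant of low x and high y and 0.060 with the highest 10% of bins. The same list gave, in the old section, 1977 CPM of Sfrp4 in rich and 1770 CPM in other bins, a ratio of 1.12 (1.05 to 1.19), and Wnt4 had 0.86 (0.73 to 1.01), or 0.56 without the quadrant of low x and high y. Sfrp1 stayed low, at 0.28 (0.17 to 0.44), and Fzd1 had 0.55 (0.41 to 0.73). The old granulosa list was thin, with 4540 CPM in its rich bins against 24606 CPM in those of the young section, and the old Sfrp1 ratio was 0.50 with bins of 3 spacings and 0.48 with the highest 10% of bins.

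Oocyte foci, groups of touching bins in which the oocyte list made up at least 1% of counts, numbered 2 in the old section, against 13 in the young one. Around the young foci Sfrp4 climbed with distance, with 101 CPM inside the foci, 352 CPM at 0 to 5 bead spacings, 741 CPM at 5 to 10, 1351 CPM at 10 to 20 and 1950 CPM beyond 20. Wnt10b did likewise, with 7.75, 37.1, 74.9, 99.1 and 141 CPM, and so did Fzd1, with 23.2, 44.5, 53.5, 78.0 and 101 CPM. Marker lists moved with distance in the same young rings: from inside outward the luteal list had 1034, 3454, 5143, 6418 and 8390 CPM, the granulosa list 2872, 5450, 7555, 10988 and 11602 CPM, and the theca list 1747, 5085, 6753, 6124 and 7938 CPM. Their part in these gradients was not tested. Wnt4 had no such gradient: it had 126 CPM inside the foci, 171 CPM at 0 to 5 spacings, 97.8 and 102 CPM further out and 134 CPM beyond 20. The level at 0 to 5 spacings was 1.27 times (0.99 to 1.62) the farthest one. Near the old foci Wnt4 had 735 CPM at 0 to 5 spacings, on 25 counts, which was 2.20 times (1.41 to 3.27) the 335 CPM beyond 20. The granulosa list stood at 6147 CPM in that ring, 2.74 times (2.37 to 3.15) its farthest level, and its part in the Wnt4 value was not tested. Around the old foci Sfrp4 had 109, 353, 640, 808 and 1995 CPM from inside outward, the first on 2 counts, and the luteal list 2184, 3588, 7251, 9755 and 13758 CPM.

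**Figure D5:**
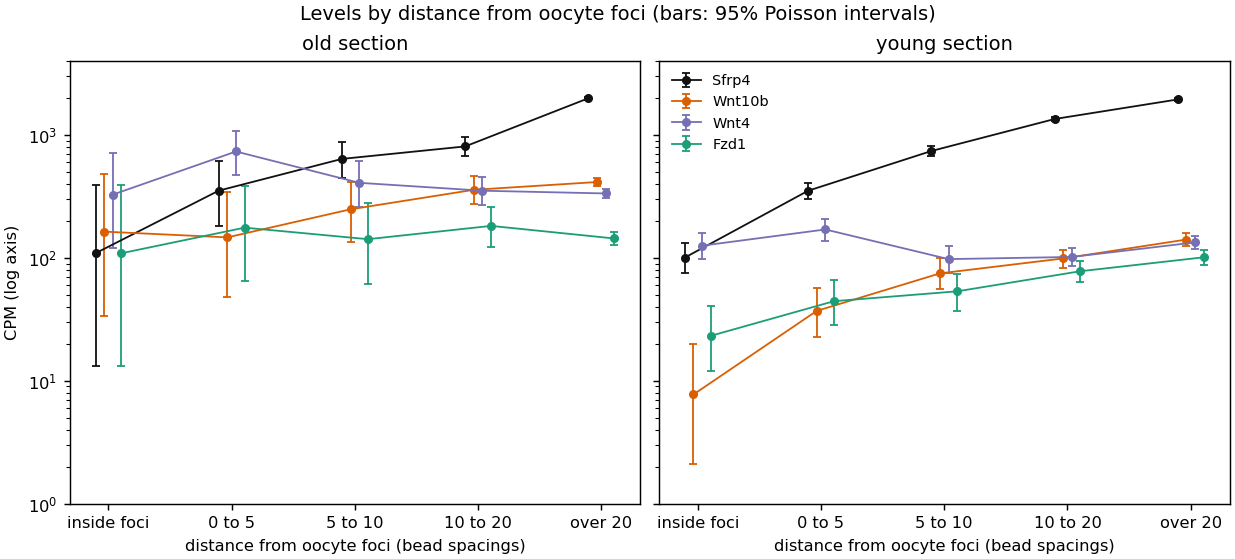
CPM (log axis) of Sfrp4, Wnt10b, Wnt4 and Fzd1 inside oocyte foci and at growing distance from them in bead spacings, old section left and young section right, with bars for 95% Poisson intervals. Sfrp4 runs from 109 to 1995 CPM in the old and from 101 to 1950 CPM in the young section, while Wnt4 stays within 97.8 to 171 CPM in the young section.

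Among the 10 marker lists, Wnt5a was highest relative to other bins in theca-rich bins, the theca being the steroid-making outer layer of the follicle. There it had 214 CPM in rich and 102 CPM in other bins of the old section, a ratio of 2.09 (1.55 to 2.79), and 164 and 49.3 CPM in the young section, a ratio of 3.33 (2.65 to 4.16). Nearly all counts of the list are those of Aldh1a1, a retinaldehyde dehydrogenase gene, so these bins are in effect Aldh1a1-rich. Ranked by Cyp17a1, the androgen-making theca enzyme, Wnt5a had a ratio of 1.61 (1.25 to 2.06) in the young section, while the old section held 7 counts of Cyp17a1, too few to rank bins. Sfrp4 was low in the same bins, with ratios of 0.44 (0.39 to 0.50) in the old section, against 0.27 (0.24 to 0.30) in the young one, and Fzd1 had 0.65 (0.43 to 0.95) and 0.44 (0.29 to 0.64). In stromal-rich bins Wnt5a had ratios of 1.21 (0.88 to 1.65) in the old section, against 1.26 (0.93 to 1.68) in the young one, intervals that span 1, and the old ratio was 0.80 without the quadrant of high x and low y.

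Sfrp1 had its 4 highest ratios, in both sections, in bins rich in smooth muscle, stromal, macrophage and endothelium genes. In smooth muscle-rich bins it had 199 CPM in rich and 77.8 CPM in other bins of the old section, a ratio of 2.56 (1.91 to 3.40), and 130 and 47.2 CPM in the young section, a ratio of 2.76 (2.13 to 3.54). In stromal-rich bins its ratios were 2.91 (2.19 to 3.84) in the old section, against 1.78 (1.34 to 2.35) in the young one, in macrophage-rich bins 3.21 (2.39 to 4.27) and 1.81 (1.38 to 2.36), and in endothelium-rich bins 1.88 (1.36 to 2.56) and 2.30 (1.77 to 2.97). Fzd1 was also high in macrophage-rich bins, with ratios of 1.85 (1.41 to 2.41) in the old section, against 3.18 (2.57 to 3.94) in the young one. In stromal-rich bins it had 1.63 (1.26 to 2.09) and 2.92 (2.33 to 3.64). Old bins rich in surface epithelium genes had 293 CPM of Fzd1 against 125 CPM in other bins, a ratio of 2.35 (1.82 to 3.01).

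Periovulatory genes, which are induced in follicles by the ovulatory signal, ranked bins usefully in the old section only, since the young list had 160 counts in all. In periovulatory-rich bins of the old section 5 of the 6 genes were at least 1.5-fold lower, where 25.9% of 10473 genes were. The ratios were 0.15 (0.086 to 0.25) for Sfrp1, 0.22 (0.18 to 0.28) for Wnt10b, 0.28 (0.22 to 0.34) for Wnt4, 0.46 (0.33 to 0.62) for Wnt5a and 0.50 (0.46 to 0.54) for Sfrp4. Fzd1 had 0.68 (0.53 to 0.87), short of that size, and 0.54 without the quadrant of low x and high y. Most old counts of the list are those of Adamts1, so these bins are in effect Adamts1-rich. By Adamts1 alone 6 of the 6 genes were at least 1.5-fold lower, with Fzd1 at 0.666 (0.514 to 0.856). No share of all genes was taken for that ranking. By distance from the edge of the section, Sfrp4 had 1717 CPM in the outer and 1954 CPM in the inner beads of the old section, a ratio of 0.88 (0.83 to 0.93), and 771 and 1819 CPM in the young section, a ratio of 0.42 (0.40 to 0.45). Wnt5a was likewise inner in the young section, with a ratio of 0.49 (0.39 to 0.61), and Fzd1 was outer in the old section, with 1.27 (1.02 to 1.59).

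Sfrp4 and Wnt10b were found together also bead by bead. In the young section Wnt10b had 306 CPM on beads with Sfrp4 and 46.7 CPM on beads without it, a ratio of 6.55 (5.45 to 7.88), and 260 beads carried both. On the old beads it had 516 and 315 CPM, a ratio of 1.64 (1.44 to 1.87), and 364 beads carried both. Beads with Sfrp4 were deeper, with medians of 337 against 91 counts in the old and 271 against 137 counts in the young section, and a bead can cover more than 1 cell. Fzd1 had a ratio of 3.15 (2.56 to 3.87) on the young beads with Sfrp4 and 0.80 (0.64 to 1.00) on the old ones.

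Across bins, Pearson's r of log counts per 10000 gave the genes most like each one, as a description of bins that share a library and differ in depth. For Sfrp4 these were Ptgfr (r = 0.55), Scarb1, Cyp11a1, Sgk1 and Lipg over 895 bins of the old section, and Tnc (r = 0.68), Ptgfr (r = 0.68), Sgk1, Lgals3 and Onecut2 over 1338 bins of the young section. Wnt10b was most like Ptgfr (r = 0.40), Hsd3b1, Tnc, Sfrp4 and Malat1 in the old section and Sgk1 (r = 0.52), Ptgfr, Tnc, Sfrp4 and Onecut2 in the young section. With every bin thinned to 500 counts, 4 of 5 of these genes recurred for Sfrp4 in each section, and for Wnt10b 5 of 5 in the old and 4 of 5 in the young section. The young list of Fzd1 began with Tnc (r = 0.40) and Ptgfr (r = 0.37) and that of Wnt4 with Tnc (r = 0.26), but after thinning only 2 of 5 genes recurred in each and the highest r was 0.144. The other lists had highest correlations of 0.23 or less, too weak in counts this sparse to be read. Moran's I, the likeness of a bin to its 8 neighbours, was taken over 6 random thinnings to 500 counts, where at least 50 counts of a gene were left. For Sfrp4 it ran from 0.375 to 0.425 in the old section, against 0.526 to 0.556 in the young one, and for Wnt10b from 0.0941 to 0.187 and from 0.0532 to 0.107. The other 4 genes reached at most 0.0946, that of Fzd1 in the young section, and Sfrp1 had too few counts left in 1 of the old and 3 of the young thinnings.

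The rest of the pathway showed no common direction. Of 79 other Wnt pathway genes, 71 were listed and 56 had at least 20 counts in either section. Of these 14 were at least 1.5-fold higher in the old section, 13 lower and 29 within that size, with a median ratio of 0.971, beside the 22.6% higher and 25.4% lower of all genes. Among the other ligands, Wnt7b had 4 counts in the old section, against 50 in the young one, a ratio of 0.18 (0.046 to 0.48), Wnt5b had 0.40 (0.15 to 0.92), and Wnt9a and Wnt6 had 1.42 and 1.23 with intervals that spanned 1. Both genes for Wnt release were higher, the acyltransferase gene Porcn at 1.92 (1.11 to 3.29) and the carrier gene Wls at 1.50 (1.27 to 1.78).

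Among 13 receptor genes measured, 4 were higher and 3 lower. The co-receptor gene Ptk7 stood at 4.41 (3.52 to 5.56) and Fzd7 at 2.78 (1.93 to 4.03), Fzd5 at 0.31 (0.18 to 0.49) and Fzd2 at 0.44 (0.26 to 0.70), and the abundant Lrp6 and Ryk at 0.93 and 1.26. Of the other secreted inhibitors, Sfrp2 had a ratio of 0.71 (0.52 to 0.95), Frzb of 0.43 (0.14 to 1.03) and Dkk3 of 1.03 (0.77 to 1.38). The R-spondin system, which raises Frizzled levels at the cell surface, had 4 genes higher and 3 lower of 8. Its receptor genes Lgr5 and Lgr4 had ratios of 6.13 (3.97 to 9.73) and 4.29 (3.87 to 4.75), while Lgr6 had 0.28 (0.21 to 0.37) and the ligand Rspo2 0.11 (0.045 to 0.24).

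Inside the cell, 12 of 16 transduction genes stayed within 1.5-fold. Dvl1, the dishevelled adaptor gene, was at 2.58 (2.29 to 2.92), and the nuclear factor genes Lef1 and Tcf7l2 were at 0.15 (0.017 to 0.58) and 0.45 (0.32 to 0.61). The beta-catenin gene Ctnnb1 had 1094 CPM in the old section, against 1209 CPM in the young one, a ratio of 0.90 (0.86 to 0.95), and Csnk1a1 had 0.85 (0.79 to 0.93). Of 9 target genes measured, 3 were higher and 1 lower. Apcdd1 and Tnfrsf19 had ratios of 2.90 (1.67 to 5.08) and 2.14 (1.34 to 3.41), Nkd1 had 0.60 (0.43 to 0.83), and Ccnd2 and Myc, the most abundant, had 0.74 and 1.09. Axin2, a feedback target of the canonical branch, had 37.5 CPM in the old section, against 31.6 CPM in the young one, a ratio of 1.19 (0.90 to 1.55).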

How the data were processed

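Whole-number counts per gene and bead were used as deposited, with bead positions in a table of their own. The build was mm10, per the submitters' processing notes. Not given in the sources used here are the aligner, the counter, the annotation, whether a count is a molecule or a read, and the length unit of the positions. Distances are therefore in bead spacings. No deposited bead had fewer than 10 counts and no listed gene fewer than 1.

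Counts were summed over a section, quadrant, bin or ring and scaled to the total there. Ratios carry exact conditional binomial 95% intervals, and genes with at least 20 counts in either section were counted by a size of 1.5-fold. The members, the marker and pathway lists and the rules were chosen with earlier results of these data known. The single-marker rankings, the Ptgfr-rich patches, the tissue outline and the Ptgfr values with quadrants left out were added after seeing the data. All 6 genes were named, and of each pathway list the highest, the lowest and the most abundant genes, plus the 5 genes most correlated with a member having at least 200 counts. Mitochondrial genes took 1.37% of counts in the old section, against 1.79% in the young one. Of the old counts 2.46%, and of the young 1.29%, lay outside the largest run of touching bins and were kept. Gene positions and promoters came from RefSeq tables of GRCm38.p6, in which 18804 of 22204 names were matched. The ratio step was tested on simulated data. Python 3.11.15, numpy 2.4.6, scipy 1.17.1, pandas 2.3.3 and matplotlib 3.10.9 were used.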

Additional observations from a re-analysis of the deposited data

Results flagged for a closer look

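Some genes were higher in the rich bins of one section and lower in those of the other, with both counting intervals on their own side of 1. The difference between the sections was not tested, since each has 1 library. Sfrp4 had a ratio of granulosa-rich over other bins of 1.12 in the old section, against 0.0808 in the young one. Its ratio in stromal-rich bins was 0.578 in the old section, against 1.5 in the young one, and in macrophage-rich bins 0.676 and 2.68. Fzd1 had a ratio in luteal-rich bins of 0.549 in the old section, against 2.1 in the young one, and in bins rich in surface epithelium genes of 2.35 and 0.688. Sfrp1 in bins rich in surface epithelium genes had 1.54 in the old section, against 0.739 in the young one. The surface epithelium list itself stood at 486 CPM in the old section and 106 CPM in the young one. In the young section it had only 535 counts in its 268 rich bins and 3 in the others. The young ratios of both Fzd1 and Sfrp1 by this list thus rest on bins ranked by very few counts.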

How the results depend on the processing

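Among the values counted here, no alternative turned the direction of a value past 1.5-fold. Some values below that size did turn. The old/young ratio of Sfrp4 was 0.933 without the old quadrant of low x and high y. In the old section Wnt5a in stromal-rich bins went from 1.21 to 0.801, and Wnt4 in granulosa-rich bins from 0.857 to 1.20. In the young section Fzd1 in periovulatory-rich bins went from 0.941 to 1.26. No paired analysis was possible, since the sections came from females of different ages with 1 library per age. Of 90 values under other settings, 69 stayed within the counting interval of the reported value, or for pathway gene counts within 1.5-fold of it. Of 96 values with a quadrant left out, 69 stayed within the counting interval. Apart from Sfrp4 by Ptgfr alone, the added Ptgfr-rich ratios and those of Fzd1 in luteal-rich bins are not in these counts. Among them, in old Ptgfr-rich bins, Fzd1 went from 0.758 to 1.56 and Sfrp1 from 1.03 to 0.664 with a quadrant left out. The cause of the moves was not tested. The old/young ratio was 1.32 for Sfrp4 under trimmed-mean scaling and 1.38 with equal weight per bin, and 2.29 for Fzd1 on beads with at least 200 counts. In the old section, Sfrp4 in luteal-rich bins had 3.93 with the highest 10% of bins and 4.03 by Ptgfr alone. In granulosa-rich bins, Sfrp1 had 0.498 with bins of 3 spacings and 0.479 with the highest 10%. Wnt10b had 0.801 under both of these and 0.390 without the list's most abundant gene. Wnt4 had 1.20 with the highest 10% and 0.598 without that gene. In the young section, Sfrp4 in luteal-rich bins had 6.19 with bins of 10 spacings, 5.94 with the highest 10%, 13.1 without the most abundant gene and 19.7 by Ptgfr alone. In granulosa-rich bins, Wnt10b had 0.234 with bins of 10 spacings and Wnt4 0.0597 with the highest 10% and 0.270 without the most abundant gene. The pathway count of 14 higher genes was 8 at a minimum of 50 counts and 9 at 2-fold.

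With each quadrant left out in turn, the old/young ratio ran from 0.933 to 1.84 for Sfrp4, 1.48 to 1.92 for Sfrp1, 2.96 to 5.39 for Wnt10b, 2.43 to 3.43 for Wnt4, 1.46 to 2.05 for Wnt5a and 1.60 to 2.19 for Fzd1. In luteal-rich bins Sfrp4 ran from 2.48 to 4.72 in the old and from 3.36 to 8.81 in the young section. In granulosa-rich bins Sfrp1 ran from 0.212 to 0.380 in the old section, against 0.232 to 0.397 in the young one, Wnt10b from 0.516 to 0.845 and 0.0899 to 0.176, and Wnt4 from 0.564 to 1.04 and 0.132 to 0.320. Wnt5a in stromal-rich bins ran from 0.801 to 1.53 in the old section, against 1.02 to 1.65 in the young one, and Fzd1 in periovulatory-rich bins from 0.543 to 0.895 and 0.883 to 1.26. Depth limits the patches and rings with under 10 counts of a gene.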
